A study of Mus musculus with 12 samples.

Results

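Tnfaip2, Rgs4, Mtmr11, Casp12 and Ccdc3 are 5 mouse genes chosen by their measured castration difference: array signal after castration was higher in luminal cells of the prostate, or moved further upward there than in basal cells. They are 5 of the 14645 genes kept after removal of low values, and of 18193 genes with a probe set that maps to a single symbol. Together they have 11 probe sets on the array, and each gene is represented by its brightest probe set, judged by mean log2 signal. All 5 passed the filter on low values, though Rgs4 did so only with its 3 castrated luminal arrays, the group where it is high. The castration comparison itself selected them, so their differences between castrated and intact mice are given as descriptions, with a standard error (SE) and no test.

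Gene expression was measured on 12 Affymetrix arrays of epithelial cells sorted from the prostates of male C57BL/6 mice. Castrated luminal and castrated basal cells came from mice whose testes were removed at 8 weeks of age and whose prostates were taken 4 weeks later, and intact luminal and intact basal cells came from paired intact mice. Both cell types lacked the lineage markers of the sort (Lin-) and carried EpCAM, with low CD49f on luminal and high CD49f on basal cells. Each of the 4 groups had 3 arrays, which the design text calls distinct sets of mice, and no genetic change or drug was used. RNA was amplified before labelling, and precision is limited by there being 3 arrays a group. In such bulk samples, fewer cells of a type and less RNA per cell cannot be told apart.

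Castration removes the testicular androgen on which most luminal cells of the prostate depend for secretion and survival, and the gland regresses while many basal cells persist. The 5 genes belong to different families. Tnfaip2, also called M-Sec, is induced by tumour necrosis factor in endothelial cells, resembles the Sec6 subunit of the exocyst and takes part in forming membrane nanotubes. Rgs4 speeds up GTP hydrolysis by G alpha subunits of the Gi and Gq classes and so shortens signals from G protein-coupled receptors. Mtmr11 is a myotubularin family member without phosphatase activity, a family whose active enzymes remove phosphate from phosphoinositides of endosomal membranes. Casp12 is an inflammatory-group caspase of the endoplasmic reticulum (ER), and Ccdc3 encodes a secreted coiled-coil protein described in fat and endothelium.

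The signal on the deposited linear scale was set against a background level on each array, the 40th percentile of all its probe sets. That level lay between 33.3 and 35.3 on castrated luminal arrays, between 46.8 and 56.1 on intact luminal arrays, between 37.1 and 44.9 on castrated basal arrays and between 48.8 and 61.1 on intact basal arrays. As a second yardstick, the 95th percentile of 80 probe sets for olfactory and vomeronasal receptors lay between 32.6 and 80.7 over the 12 arrays. Summed basal markers were 12390 to 14459 on castrated luminal and 12939 to 14491 on intact luminal arrays, against 122674 to 156318 on castrated basal and 94451 to 118813 on intact basal arrays. Summed luminal markers were 83235 to 105281 on castrated luminal and 160141 to 182471 on intact luminal arrays, against 63243 to 80785 on castrated basal and 58157 to 69472 on intact basal arrays. Each labelled cell type therefore had the higher sum of its own markers, though castrated luminal and castrated basal arrays lay close in summed luminal markers. No measured luminal or basal marker was below background on all arrays of any group.

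The label of a rise restricted to castrated luminal cells did not hold for all 5 genes. Only Tnfaip2 and Rgs4, 2 of 5, had all 3 castrated luminal arrays above the other 9 arrays, a pattern seen in 5.45% of the 14645 genes. All 3 castrated luminal arrays exceeded all 3 intact luminal arrays for 4 of 5 genes, Mtmr11 being the exception, against 14.9% of all genes. All 3 castrated basal arrays exceeded all 3 intact basal arrays for 1 of 5 genes, Ccdc3, against 8.71% of all genes. Because castration differences chose the genes, nothing is read from these shares. In their chosen probe sets Casp12 and Mtmr11 overlapped between castrated luminal and intact basal cells, and Ccdc3 was high in every group but intact luminal cells.

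**Figure D1:**
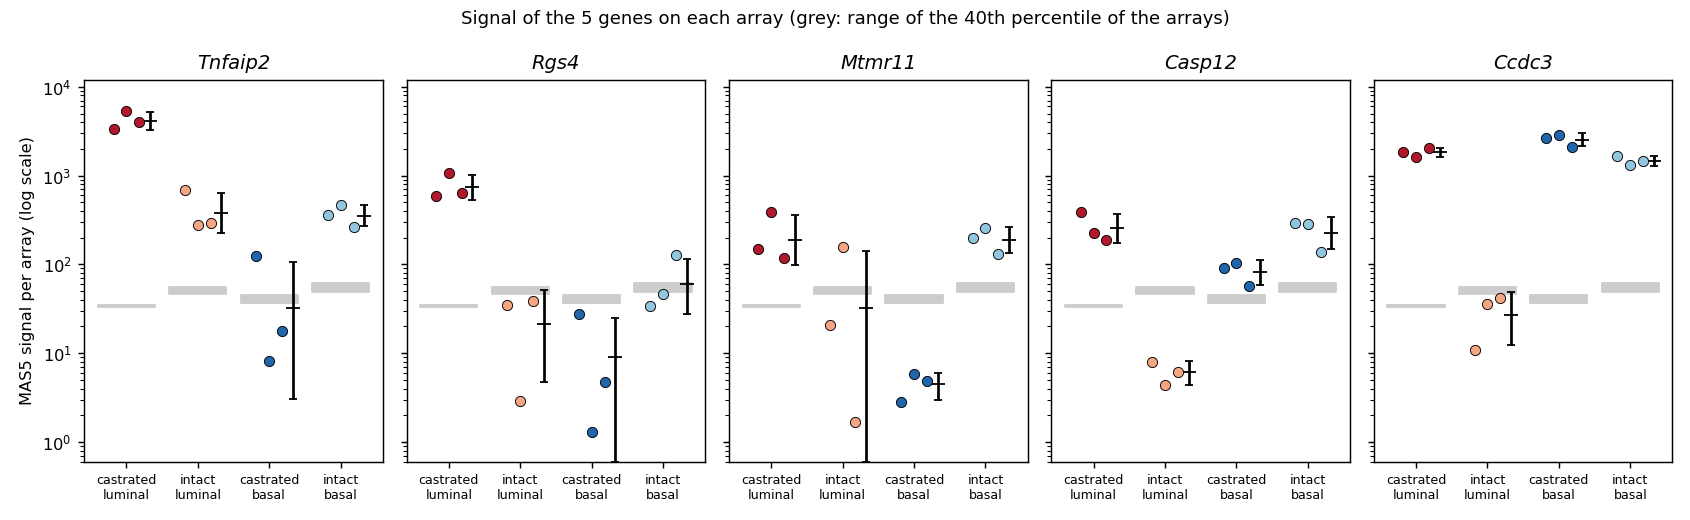
Signal of the chosen probe set of each of the 5 genes on each of the 12 arrays, on a logarithmic axis, by group; points are arrays, bars are the mean ± SD taken on log2(signal + 16) and turned back to signal, with the lower end cut where it would leave the axis, and grey bands span the 40th percentiles of each group's arrays. Tnfaip2 and Rgs4 are highest on the 3 castrated luminal arrays, while Ccdc3 is low only on the 3 intact luminal arrays.

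The stretches before the annotated start of 4 of the genes are shown because these genes formed the 2 pairs most alike over the arrays, Tnfaip2 with Rgs4 and Casp12 with Ccdc3. The same arrays served to choose the genes, so nothing is read from this pairing. Each line holds the 250 bases upstream of the start, 5′ to 3′ on the gene's strand, from RefSeq on GRCm38.p6. Tnfaip2 lies on the plus strand at chr12:111442411-111442660, Rgs4 on the minus strand at chr1:169747643-169747892, Casp12 on the plus strand at chr9:5345226-5345475 and Ccdc3 on the plus strand at chr2:5137526-5137775. Capitals mark matches to the motifs described after them.
Tnfaip2: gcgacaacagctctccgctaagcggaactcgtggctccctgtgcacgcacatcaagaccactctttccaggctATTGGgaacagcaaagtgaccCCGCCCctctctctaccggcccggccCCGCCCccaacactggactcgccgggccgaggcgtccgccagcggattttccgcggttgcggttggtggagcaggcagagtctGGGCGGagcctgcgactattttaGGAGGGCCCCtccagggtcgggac
Rgs4: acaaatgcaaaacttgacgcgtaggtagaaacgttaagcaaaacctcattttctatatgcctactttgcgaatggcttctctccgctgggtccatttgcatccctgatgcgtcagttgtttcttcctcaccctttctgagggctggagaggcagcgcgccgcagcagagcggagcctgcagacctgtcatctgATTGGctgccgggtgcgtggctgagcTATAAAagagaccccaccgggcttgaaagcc
Casp12: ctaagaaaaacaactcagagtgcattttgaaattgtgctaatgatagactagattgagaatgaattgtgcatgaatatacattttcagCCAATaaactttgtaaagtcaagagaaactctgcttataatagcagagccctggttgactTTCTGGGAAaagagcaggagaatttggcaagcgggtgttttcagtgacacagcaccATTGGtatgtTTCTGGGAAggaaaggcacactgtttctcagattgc
Ccdc3: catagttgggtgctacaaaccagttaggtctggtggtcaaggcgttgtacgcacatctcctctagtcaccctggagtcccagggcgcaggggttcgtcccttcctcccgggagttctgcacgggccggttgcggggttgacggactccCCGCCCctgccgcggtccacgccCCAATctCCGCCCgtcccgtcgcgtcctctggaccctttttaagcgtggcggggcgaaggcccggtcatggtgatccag

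Motifs were searched on both strands in windows of 300 bases, 250 before and 50 after the start, and matches could overlap. All 5 genes had such a window, and the shares given are of 32851 promoter windows of 27025 genes. The Tnfaip2 window held a match to the NF-kB consensus, GGAGGGCCCC, starting 24 bases before the start, a motif present in 8.46% of windows. It also held 3 matches to the GC box GGGCGG, which 35.7% of windows contain, and 1 to CCAAT, which 37.4% contain. The Rgs4 window held TATAAA starting 31 bases before the start, present in 13.6% of windows, and 1 CCAAT match.

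The Casp12 window held 2 copies of TTCTGGGAA, 102 and 36 bases before the start, which match the STAT pattern TTCNNNGAA. That pattern occurs in 8.30% of windows, and at least 2 matches occur in 0.457%. Casp12 also had 2 CCAAT matches, and Ccdc3 had 2 GC boxes and 1 CCAAT match. The Mtmr11 window held the steroid receptor half-site AGAACA on the opposite strand, starting 7 bases before the start, as 19.0% of windows do. None of the 5 windows held the palindromic androgen response element, found in 0.00913% of windows, nor TGANTCA (AP-1, 7.81%), the cyclic AMP response element (1.79%), the core of the interferon-stimulated response element (3.44%) or TGTGGT (RUNX, 16.8%). The windows also differed in base composition: G and C made up 64.3% in Tnfaip2, 53% in Rgs4, 44% in Mtmr11, 41% in Casp12 and 66.3% in Ccdc3, against a median of 52.7% over all windows. Their CpG counts were 23, 13, 4, 3 and 28 in the same order, against a median of 7. No motif was shared by all 5 windows.

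Tnfaip2, the membrane nanotube protein, had signals of 3333, 5331 and 4020.2 in castrated luminal cells, against 691, 278 and 290.1 in intact luminal cells. In castrated basal cells it had 123, 8.07 and 17.9, against 357, 466 and 266 in intact basal cells. The castrated luminal arrays stood apart above all others, and the castrated basal arrays stood below all others, so the 2 cell types moved in opposite directions from similar intact levels. The mean was 4228 ± 1015 in castrated luminal cells and 420 ± 235 in intact luminal cells (SD, n = 3 each). It was 49.8 ± 63.9 in castrated basal cells and 363 ± 99.99 in intact basal cells (SD, n = 3 each).

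On the log2(signal + 16) scale, on which differences of low signals are understated, Tnfaip2 was 3.38 ± 0.60 (SE) higher in castrated than in intact luminal cells. In basal cells its castrated minus intact difference was -2.93 ± 0.60. The luminal minus the basal difference was 6.32 ± 0.85 in this probe set, with 2 of 3 castrated basal arrays below background. Castrated luminal cells exceeded castrated basal cells by 6.43, whereas intact luminal and intact basal cells differed by 0.11. Relative to the 40th percentile, the mean stood at 6.37 in castrated luminal, 2.56 in intact luminal, -0.21 in castrated basal and 2.40 in intact basal cells, in log2 units. All 3 arrays lay above background in each group except castrated basal cells, where only 1 of 3 did.

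The chosen Tnfaip2 probe set, 1438855_x_at, is of a kind whose probes can match more than 1 transcript, and both other Tnfaip2 probe sets were dimmer. Probe set 1416273_at had 153, 429.9 and 235 in castrated luminal cells, against 10.5, 85.7 and 35.6 in intact luminal cells, and 1457918_at had 227, 176 and 169.6 against 87.4, 84.3 and 94.97. Both placed the castrated luminal arrays above the intact luminal arrays, with smaller differences of 2.36 and 0.97. In basal cells 1416273_at had 8.92, 12.04 and 45.03 in castrated mice, against 56.5, 30.9 and 18.4 in intact mice, so the basal arrays overlapped in this probe set. The luminal minus basal difference was 2.85 ± 0.93 for 1416273_at and 1.502 ± 0.82 for 1457918_at, against 6.32 for the chosen probe set. The rise in luminal cells was thus shared by the 3 probe sets, while the separation of the basal groups was seen in the chosen one.

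Rgs4, the G alpha GTPase activator, had signals of 596, 1064 and 629 in castrated luminal cells, against 34.9, 2.91 and 38.7 in intact luminal cells. In castrated basal cells it had 27.5, 1.302 and 4.69, against 34.2, 46.1 and 126 in intact basal cells. Only the castrated luminal arrays were clearly above background: no intact luminal and no castrated basal array reached its 40th percentile, and 1 of 3 intact basal arrays did. The lowest castrated luminal array was 4.72 times the highest of the other 9. Means were 763 ± 261 in castrated luminal cells and 25.5 ± 19.7 in intact luminal cells (SD, n = 3 each).

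Rgs4 was 4.33 ± 0.65 (SE, log2) higher in castrated than in intact luminal cells, with a basal difference of -1.61 ± 0.65 between groups that mostly lay at background. With intact luminal arrays raised to their background level, Rgs4 was at least 14.2-fold higher in castrated luminal cells. Against castrated basal cells the same bound was at least 18.3-fold. The luminal minus basal difference of 5.94 ± 0.92 included arrays below background in 3 of the 4 groups, and lay between 3.96 and 8.42 under other settings of the processing.

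Both other Rgs4 probe sets gave the same picture in luminal cells. Probe set 1416286_at had 1206, 1759 and 1499.6 in castrated luminal cells, against 16.1, 29.6 and 9.71 in intact luminal cells, and its difference was 5.47. In basal cells it had 55.3, 0.717 and 23.6 in castrated mice, against 0.932, 2.34 and 3.89 in intact mice, and the sign of the basal difference turned to 0.98. Probe set 1448285_at had 232, 588 and 328 in castrated luminal cells, and no other array exceeded 5.81. The direction in basal cells, near background throughout, therefore depended on the probe set.

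Mtmr11, the inactive myotubularin, had signals of 148, 388 and 117 in castrated luminal cells, against 20.6, 159 and 1.68 in intact luminal cells. In castrated basal cells it had 2.81, 5.78 and 4.86, against 200.2, 256 and 129 in intact basal cells. The luminal groups overlapped, because the second intact luminal array lay above 2 of the castrated luminal arrays. The basal groups did not overlap: all castrated basal arrays were below background and all intact basal arrays above it. The larger of the Mtmr11 differences was therefore the one in basal cells, downward.

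Means were 217 ± 148 in castrated luminal cells and 60.3 ± 85.7 in intact luminal cells, 4.48 ± 1.52 in castrated basal cells and 195 ± 63.3 in intact basal cells (SD, n = 3 each). The castrated minus intact difference of Mtmr11 was 2.09 ± 0.75 (SE, log2) in luminal cells and -3.32 ± 0.75 in basal cells. Without the third intact luminal array the luminal difference was 1.37, and without the second it was 3.02. Intact basal cells were at least 4.68-fold higher than castrated basal cells, when castrated basal arrays were raised to background. Probe set 1441835_x_at, which may match other transcripts, had 55.9, 61.3 and 177 in castrated luminal cells, against 46.1, 102 and 29.7 in intact luminal cells. Its luminal difference was 0.56 ± 0.69, smaller than its SE, so the luminal rise was not shared between the Mtmr11 probe sets.

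Casp12, the ER caspase, had signals of 389, 228 and 189 in castrated luminal cells, against 8.06, 4.37 and 6.197 in intact luminal cells. In castrated basal cells it had 90.00, 105 and 57.1, against 294, 284 and 139 in intact basal cells. All intact luminal arrays were below background, and the other 9 arrays were above it. Against the receptor 95th percentile, only 2 of 3 castrated basal arrays stood above. Castrated luminal and intact basal arrays overlapped, with castrated basal arrays below both. The means were 269 ± 106 in castrated luminal cells, 6.21 ± 1.85 in intact luminal cells, 84.0 ± 24.5 in castrated basal cells and 239 ± 86.9 in intact basal cells (SD, n = 3 each).

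The difference for Casp12 was 3.62 ± 0.56 (SE, log2) in luminal cells and -1.31 ± 0.56 in basal cells. Castrated luminal cells were at least 4.95-fold higher than intact luminal cells raised to background. The luminal minus basal difference was 1.48 in castrated mice and -3.46 in intact mice. Probe set 1449297_at had 88.00, 98.6 and 167 in castrated luminal cells, against 46.9, 4.29 and 7.49 in intact luminal cells, a difference of 2.06, again without overlap of the luminal groups. In basal cells it had 59.3, 25.6 and 41.02 in castrated mice, against 39.2, 36.5 and 139 in intact mice. These groups overlapped, with a difference of -0.44 ± 0.64 and only 1 of 3 intact basal arrays above background, so the lower castrated basal level and the high intact basal level of the chosen probe set were not shared.

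Ccdc3, the secreted coiled-coil protein, had signals of 1821, 1621 and 2044 in castrated luminal cells, against 10.8, 36.2 and 41.7 in intact luminal cells. In castrated basal cells it had 2656, 2887 and 2097, against 1663, 1304 and 1447 in intact basal cells. Castrated luminal cells thus lay at the level of the basal groups, and only the intact luminal arrays were below background. Its luminal difference was 5.41 ± 0.38 (SE, log2), and at least 35.2-fold against intact luminal cells raised to background. Its basal difference was 0.78 ± 0.38, in the same direction, and 4.63 ± 0.54 remained as the luminal minus basal difference. The luminal minus basal difference was -0.47 in castrated mice and -5.10 in intact mice. Ccdc3 has 1 probe set on the array, so no second one bears on it. The summed basal markers given above overlapped between castrated and intact luminal arrays, and of 8 basal markers none rose and 1 fell in luminal cells. Any part of basal cells in the luminal Ccdc3 difference was not tested.

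**Figure D2:**
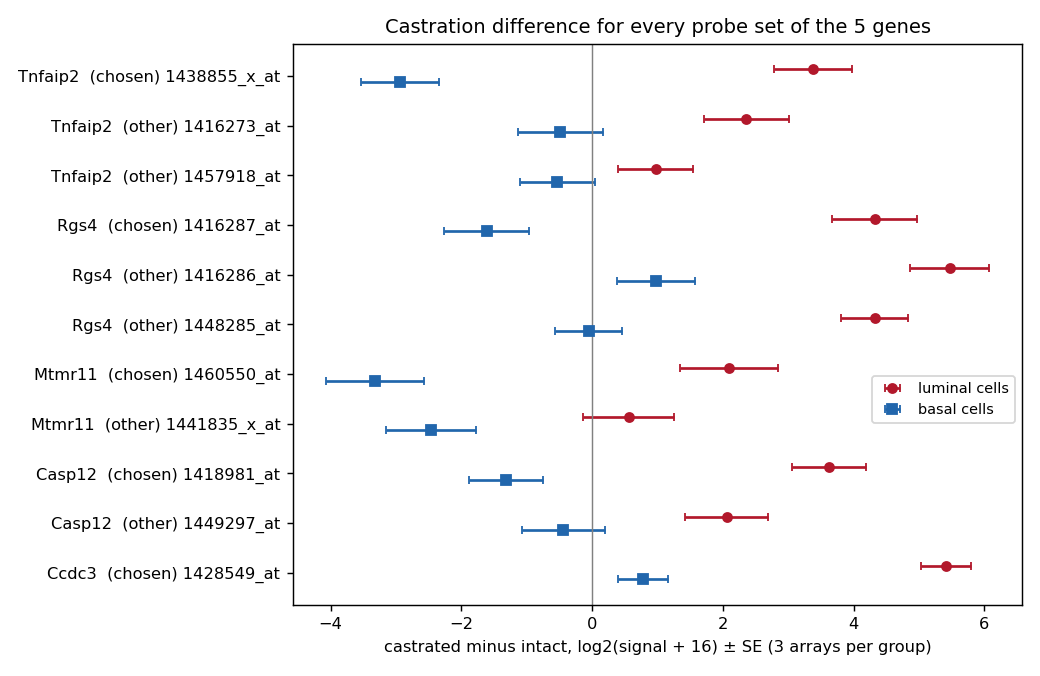
Castrated minus intact difference on log2(signal + 16), with SE, in luminal and basal cells for each of the 11 probe sets of the 5 genes. All luminal differences are positive, between 0.56 and 5.47, while basal differences are mostly negative, the exceptions being Ccdc3 and Rgs4 probe set 1416286_at.

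Markers of cell types that a sort could carry along were mostly lower in castrated luminal cells. Summed endothelial markers were 197 to 332 on castrated luminal arrays and 389 to 1248 on intact luminal arrays, with 8 of 9 measured and Pecam1, Tek and Emcn below background on all castrated luminal arrays. Summed leukocyte markers were 223 to 435 on castrated luminal and 535 to 1322 on intact luminal arrays, with 8 of 10 measured and Ptprc below background on all castrated luminal arrays. Summed fibroblast markers were 754 to 978 against 7851 to 14242, with Col1a1, Pdgfra and Sparc below background on castrated luminal arrays, and 6 of 9 fell there. Summed smooth muscle and pericyte markers were 195 to 364 on castrated luminal and 584 to 2020 on intact luminal arrays, with 6 of 8 measured. Summed adipocyte markers, 3 of 7 measured, were 14.5 to 59.2 on castrated luminal and 105 to 315 on intact luminal arrays. No marker of endothelium, leukocytes, smooth muscle and pericytes or adipocytes passed in luminal cells. The background level was itself lower on castrated than on intact luminal arrays, so lower sums of dim markers need not mean fewer such cells. Summed nerve and Schwann markers, 5 of 9 measured, were 1334 to 1941 on castrated luminal and 508 to 1148 on intact luminal arrays, and the higher sum came from Mbp, a myelin gene. Mbp had 1247, 1847 and 1674 in castrated luminal cells, against 526, 475 and 194 in intact luminal cells, and rose by 2.05 (log2, adjusted p = 0.00432). The other 4 had negative differences that did not pass, the list's median was -1.28, and Tubb3 and Uchl1 lay below background on castrated luminal arrays. The part of Mbp, or of the other markers' cell types, in the luminal differences was not tested.

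In basal cells, where the Tnfaip2, Mtmr11 and Casp12 differences were negative, summed fibroblast markers were 23932 to 29467 on castrated and 40259 to 51343 on intact arrays. Of these 9 markers, 4 fell there (Col1a1, Col1a2, Col3a1 and Sparc), the median was -2.01, and Lum lay below background on all castrated basal arrays. Summed leukocyte markers were 1783 to 2522 on castrated basal and 806 to 1906 on intact basal arrays, and 1 of 8 rose, Lyz2, by 2.40 ± 0.59 (adjusted p = 0.0398). Summed endothelial markers were 607 to 630 on castrated basal arrays, all 3 under the range of 699 to 1187 on intact basal arrays, and none of 8 passed. Summed adipocyte markers were 59.4 to 227 on castrated basal and 499 to 2977 on intact basal arrays, and 1 of 3 fell. Summed smooth muscle and pericyte markers were 971 to 1992 against 1620 to 2429, and none of 6 passed. The background level was also lower on castrated than on intact basal arrays, so lower sums of dim markers carry the same limit. The part of these cell types in the basal differences was not tested.

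Likeness between genes was measured as Pearson's r over the 12 arrays on log2(signal + 16), as a description, since the arrays share 4 groups. The 5 genes were chosen by castration differences on these same arrays, so likeness among them is partly set by that choice. For Rgs4, r also rests on arrays below background: all intact luminal, all castrated basal and all but 1 of the intact basal arrays. Among the 5, Tnfaip2 and Rgs4 were most alike (r = 0.89), followed by Casp12 and Ccdc3 (r = 0.84). Tnfaip2 and Ccdc3 were unrelated (r = -0.06), and Mtmr11 had r = 0.68 with Tnfaip2, 0.58 with Rgs4, 0.55 with Casp12 and 0.16 with Ccdc3. Rgs4 and Casp12 had r = 0.56. Tnfaip2 and Rgs4 were highest in castrated luminal cells, and Casp12 and Ccdc3 were below background on all intact luminal arrays in their chosen probe sets. Mtmr11 was below background on all castrated basal and 2 of 3 intact luminal arrays.

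The named gene most like both Tnfaip2 (r = 0.971) and Rgs4 (r = 0.951) was Sh2d4a, which encodes an SH2 domain protein. Sh2d4a averaged 1292 ± 332 in castrated luminal and 264 ± 113 in intact luminal cells, 120 ± 62.5 in castrated basal and 252 ± 61.1 in intact basal cells (SD, n = 3 each). Next to Tnfaip2 came Sec14l2, a lipid-binding protein (r = 0.939), and Il1r1, the receptor of interleukin-1 (r = 0.929). Il1r1 averaged 1148 ± 87.6 in castrated luminal and 427 ± 56.0 in intact luminal cells, 224 ± 19.9 in castrated basal and 498 ± 172 in intact basal cells (SD, n = 3 each). Next to Rgs4 came Tnf, the cytokine that gives Tnfaip2 its name (r = 0.934), and Cytip, a cytohesin-binding protein (r = 0.931).

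For Mtmr11 the nearest genes were Podxl, a sialomucin of the apical membrane (r = 0.913), Tmem170b (r = 0.891) and the actin regulator Wasf1 (r = 0.891). Podxl averaged 1153 ± 319 in castrated luminal and 375 ± 145 in intact luminal cells, 324 ± 19.5 in castrated basal and 797 ± 174 in intact basal cells (SD, n = 3 each). For Casp12 they were the endocytic adaptor Eps15 (r = 0.943), the deubiquitinase Otud1 (r = 0.919) and Bcl2l11, which encodes the pro-apoptotic protein Bim (r = 0.911). Bcl2l11 averaged 4454 ± 676 in castrated luminal and 1356 ± 106 in intact luminal cells, 3520 ± 956 in castrated basal and 3937 ± 790.1 in intact basal cells (SD, n = 3 each).

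For Ccdc3 they were the cytochrome P450 gene Cyp2s1 (r = 0.969), the matrix glycoprotein gene Thbs1 (r = 0.957) and the serine protease gene Prss23 (r = 0.957). Cyp2s1 averaged 1246 ± 186 in castrated luminal and 37.8 ± 13.3 in intact luminal cells, 1733 ± 646 in castrated basal and 1162 ± 378 in intact basal cells (SD, n = 3 each). Like Ccdc3 it was low only in intact luminal cells. Thbs1 averaged 14408 ± 1776 in castrated luminal and 1691 ± 157 in intact luminal cells, 26619 ± 5435 in castrated basal and 10183 ± 948 in intact basal cells (SD, n = 3 each).

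**Figure D3:**
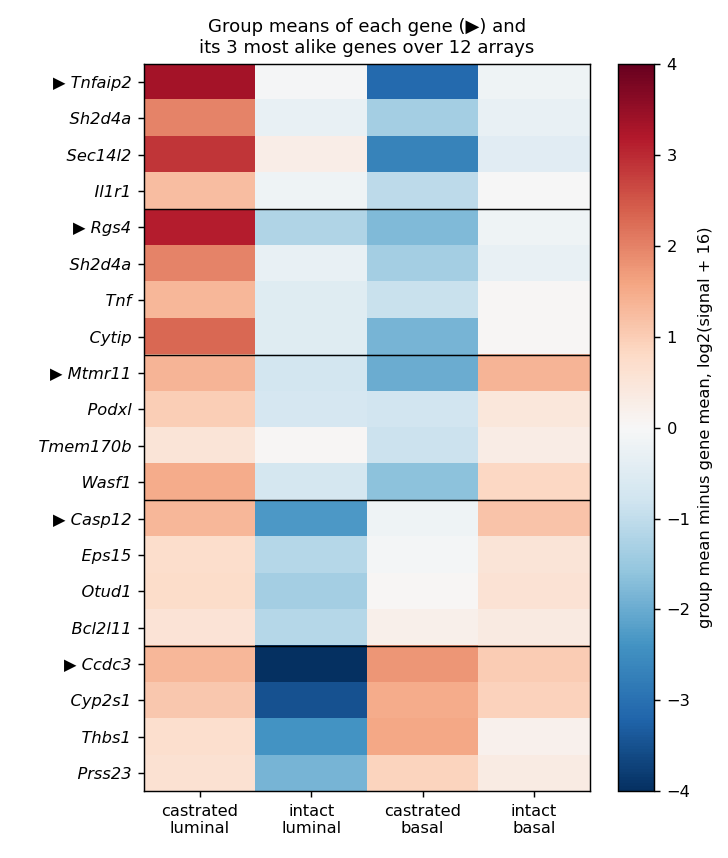
Group mean minus the gene's mean over the 4 groups, on log2(signal + 16) as colour, for each of the 5 genes (marked by a triangle) and its 3 most alike genes, with the groups in columns. Sh2d4a is listed under both Tnfaip2 (r = 0.971) and Rgs4 (r = 0.951), and the Ccdc3 block is low in intact luminal cells.

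Relatives of the 5 genes in their pathways and families were tested over all 14645 genes with limma, with adjusted p by the Benjamini-Hochberg method. In luminal cells 5.86% of all genes passed, 2.9% rising and 2.96% falling after castration, with a median difference of -0.09. In basal cells 2.62% passed, 1.12% rising and 1.5% falling, with a median of -0.11. The luminal and basal differences themselves differed for 1.15% of genes, luminal being higher for 0.676% and lower for 0.471%, with a median of 0.03. The share of all genes at an unadjusted p under 0.05 was not counted, so nothing is read from list counts at that threshold.

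Around Tnfaip2, TNF signalling genes and other TNF-induced genes mostly did not pass the test. Of 26 listed, 19 were measured, 1 rose and none fell in luminal cells, with a median of 0.29; at an unadjusted p under 0.05 the limma counts were 4 and 0. The riser was Birc3, an inhibitor of apoptosis induced by NF-kB, with 3444, 5626 and 4087 in castrated luminal cells, against 2007, 2510.04 and 1239 in intact luminal cells. Its difference was 1.21 ± 0.31 (SE, adjusted p = 0.0283), and it passed in 7 of 12 fits that each left out 1 array. Tnf itself had 212, 220.1 and 333 in castrated luminal cells, against 86.6, 42.7 and 57.4 in intact luminal cells. Its difference of 1.80 ± 0.56 did not pass (adjusted p = 0.0713), nor did that of Traf2, an adaptor of the TNF receptor (1.55, adjusted p = 0.0603), or that of Tnfaip3, an NF-kB inhibitor (0.83, adjusted p = 0.126). Under 12 other settings of the processing Tnf passed in 6, Traf2 in 7 and Tnfaip3 in 4, median centring among them for each. In the 12 fits that each left out 1 array, Tnf and Tnfaip3 passed in 0 and Traf2 in 1. In basal cells Tnfrsf1a, the main TNF receptor, was the 1 of 19 that rose, by 1.51 ± 0.37 (adjusted p = 0.0365, and 0.0531 with the replicate number as a block). No TNF list gene passed the limma test of the luminal minus basal difference. At an unadjusted p under 0.05 it gave 4 higher and 0 lower of 19, with no share of all genes to set beside them.

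Among the exocyst subunits and Sec6 relatives, the family Tnfaip2 resembles, 13 of 14 were measured and 1 rose in luminal cells, with a median of 0.09. Exoc4, an exocyst subunit, had 5234, 5144 and 6499.6 in castrated luminal cells, against 1486, 2589 and 1229.7 in intact luminal cells. The groups did not overlap, and the difference was 1.73 ± 0.37 (adjusted p = 0.00822). None passed in basal cells, where the median was 0.47 and limma gave 1 higher and 1 lower at an unadjusted p under 0.05. Exoc3, which is Sec6 itself, and Exoc3l4, a Sec6-like gene, had luminal differences of 0.49 and -0.42 that did not pass.

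Among the RGS proteins and their G alpha targets, 24 of 28 were measured, and 1 rose and 2 fell in luminal cells, with a median of -0.05. Rgs2, which acts mainly on Gq, had 1320.4, 1002 and 938 in castrated luminal cells, against 11545, 9767 and 5455 in intact luminal cells. It had 5675, 4279 and 3805 in castrated basal cells, against 4886, 4505 and 5864 in intact basal cells. Rgs2 thus fell by 2.97 ± 0.28 in luminal cells (adjusted p = 6.78e-06), and the luminal minus basal difference was -2.81 ± 0.40 (adjusted p = 0.00293). Rgs17, a regulator of Gi and Gz, had 164, 241 and 132 in castrated luminal cells, against 1.804, 15.1 and 19.9 in intact luminal cells, and rose by 2.81 ± 0.58 (adjusted p = 0.00676). Like Rgs4 it was below background on all intact luminal arrays. Rgs17 was also below background on all castrated basal and all intact basal arrays. It therefore passed the filter on low values only through its 3 castrated luminal arrays, the group whose rise was tested. Its p-value is thus not independent of the filter, and the size of its difference rests on intact luminal signals below background. The Rgs17 call was lost with 1 as the constant added before the log2. Rgs11 fell by 2.47 ± 0.66 (adjusted p = 0.0338, and 0.0527 with the replicate number as a block). Rgs3, Rgs5 and Rgs16 had luminal differences of 1.72, -0.52 and -0.08 that did not pass. In basal cells 1 of 24 rose, the G alpha gene Gnai3, by 0.96 ± 0.22 (adjusted p = 0.0283).

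None of the 18 measured myotubularins and phosphoinositide partners passed in luminal cells, where the median was 0.05 and limma gave 2 higher and 1 lower at an unadjusted p under 0.05. Mtmr12, an inactive member like Mtmr11, had a luminal difference of 0.83 (adjusted p = 0.126), and Mtmr2, an active phosphatase, one of 0.42. Mtmr10, another inactive member, had 359.9, 749 and 1153 in castrated basal cells, against 223, 92.4 and 6.06 in intact basal cells. It rose in basal cells by 3.07 ± 0.67 (adjusted p = 0.0256), whereas the Mtmr11 difference there was negative, and its luminal difference was -0.29.

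Of 17 caspase and inflammasome genes, 10 were measured and 1 rose in luminal cells, with a median of 0.56. Casp4, the receptor caspase for cytosolic lipopolysaccharide, had 3925, 4168 and 5073 in castrated luminal cells, against 1319, 1028 and 1460.2 in intact luminal cells, and rose by 1.78 ± 0.28 (adjusted p = 8.52e-04). Casp4 in castrated basal cells had 5250.4, 5472 and 6958, against 5717, 6071 and 3085 in intact basal cells, so that like Casp12 it was lowest in intact luminal cells. Its luminal minus basal difference of 1.48 did not pass (adjusted p = 0.0822). Casp8, the initiator caspase of death receptors, had a luminal difference of 1.17 (adjusted p = 0.104). Gsdmd, the pore-forming substrate of inflammatory caspases, fell in basal cells by 2.56 ± 0.62 (adjusted p = 0.0377), a call kept in 4 of 12 fits that left out 1 array.

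Of 16 ER stress genes, 15 were measured, and 2 rose and 5 fell in luminal cells, with a median of -0.60. The calpain gene Capn2, whose product can cleave Casp12, rose by 1.88 ± 0.42 (adjusted p = 0.0117), and Trib3, a pseudokinase gene induced by stress, rose by 2.29 ± 0.47 (adjusted p = 0.00633). The fallers were Herpud1, an ER degradation factor, Ddit3 (CHOP), the sensor Ern1 and the co-chaperones Dnajc3 and Dnajb9. Herpud1 had 2566, 2787 and 2137 in castrated luminal cells, against 6361, 5399.6 and 5869.6 in intact luminal cells, and fell by 1.24 ± 0.24 (adjusted p = 0.00494). Herpud1 in castrated basal cells had 2321, 2408 and 2089, against 904, 961 and 973 in intact basal cells, and rose by 1.25 ± 0.24 (adjusted p = 0.0130). Its luminal minus basal difference was -2.48 ± 0.34 (adjusted p = 0.00269), opposite in sign to that of Casp12.

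Ddit3 fell in luminal cells by 1.33 ± 0.33 (adjusted p = 0.0240), and its luminal minus basal difference was -2.40 ± 0.47 (adjusted p = 0.0170). Ern1 fell by 1.46 ± 0.32 (adjusted p = 0.0102) and Dnajc3 fell by 1.22 ± 0.23 (adjusted p = 0.00371). Dnajb9 fell by 0.93 ± 0.27 (adjusted p = 0.0479, and 0.0621 with the replicate number as a block). In basal cells 2 of 15 rose, Trib3 and Herpud1, and 1 fell, Dnajc3. The Casp12 difference in luminal cells was thus opposite in sign to those of the 5 fallers. It had the same sign as those of the 2 risers, Capn2 and Trib3. Any part of ER stress in the Casp12 difference was not tested. The count of falls depends on array scaling: under median centring 1 of 15, Ern1, fell in luminal cells, beside 252 of all 14645 genes.

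**Figure D4:**
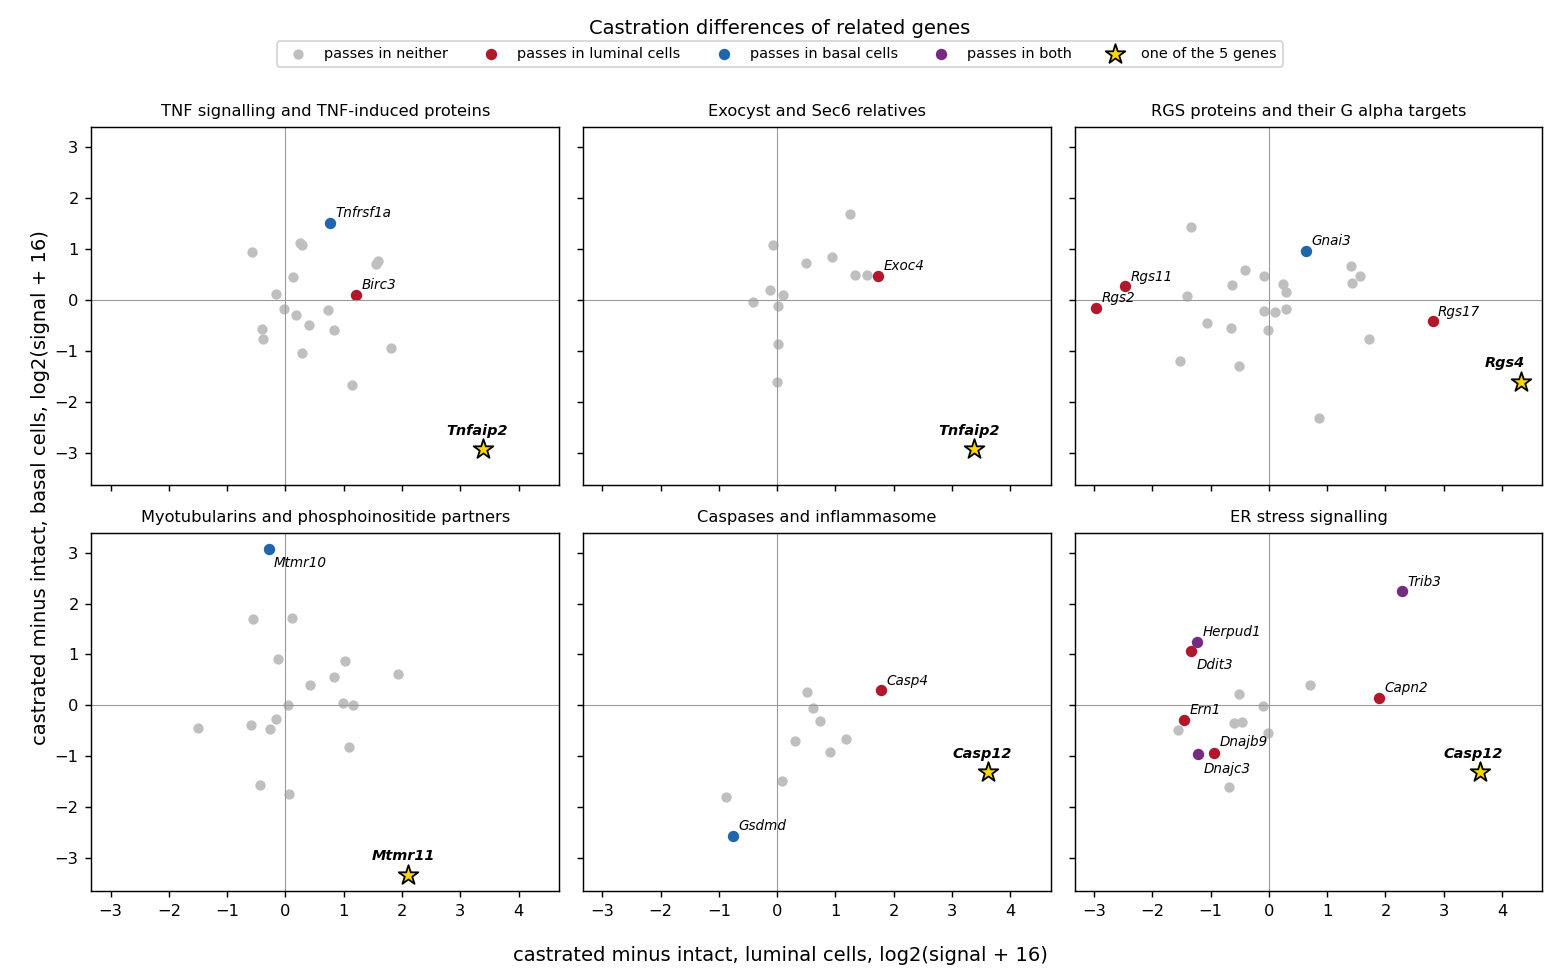
Castrated minus intact differences on log2(signal + 16) in luminal cells (horizontal) and basal cells (vertical) for the measured genes of each family or pathway list. Colours mark genes with adjusted p below 0.05, and stars mark Tnfaip2, Rgs4, Mtmr11 and Casp12. Ccdc3 belongs to none of the lists and is not shown. Casp4, Exoc4, Rgs17 and Birc3 lie to the right with the starred genes of their lists, and Rgs2 lies furthest to the left in its list.

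The 3 measured genes on either side of each of the 5 genes, in the order of the GRCm38.p6 annotation, gave 30 neighbours. In luminal cells 2 of 30 rose and 1 fell, with a median of -0.35, and in basal cells 1 rose and none fell, with a median of -0.48. Casp4 is the next protein-coding gene to Casp12, and both were higher in castrated luminal cells. Otud7b, a deubiquitinase gene next to Mtmr11, rose by 0.90 ± 0.23 in luminal cells (adjusted p = 0.0258) and by 0.94 ± 0.23 in basal cells (adjusted p = 0.0377). Phyh, a peroxisomal enzyme gene near Ccdc3, fell by 1.67 ± 0.28 in luminal cells (adjusted p = 0.00167). Rgs5, the neighbour of Rgs4, and Exoc3l4, the neighbour of Tnfaip2, did not pass in either cell type.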

How the data were processed

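The members and gene lists were chosen with earlier results of these data known. Sorted cells gave RNA by an RNeasy Micro kit, which was amplified (NuGEN Pico) and biotin-labelled, per the labels' protocols. The signal intensity deposited by the authors comes from MAS5, per the submitters' processing notes, with no version given in the sources used here. Trimmed array means of 500.003 to 500.004 show that arrays were already scaled; array medians were 57.7 to 99.95. Detection calls were not used here.

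From 45101 probe sets, 64 controls were dropped, and 34945 had 1 symbol in the supplied annotation. Values were taken as log2(signal + 16). A probe set had to exceed the 40th percentile of its array on 3 arrays or more, and the brightest one was used for each of 14645 genes. In R 4.3.3, limma 3.58.1 fitted all 4 group means at once, using an intensity trend and 8 residual degrees of freedom; p-values were adjusted by Benjamini-Hochberg and called at 0.05. The fit was tested on simulated data. Lower bounds of folds set the mean log2 signal of the brighter group against the mean of the higher of signal and 40th percentile on each dimmer array.

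Named genes were the 5 members, the 3 genes with highest r for each member (no provisional symbols), up to 4 genes per list with the lowest adjusted p in luminal cells, all that passed there, and close relatives. Genes named for basal cells alone, the neighbours and Mbp were chosen after their values were seen. Casp1 was too dim to be kept.

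The design text pairs castrated and intact animals within 3 sets, taken here to be the replicate numbers. Once group means were subtracted, arrays sharing a number correlated at -0.00723 to 0.0258 over genes. The principal fit had no replicate term; an alternative had it as a block. Other alternatives were quantile normalization, median centring, other constants (1 and 64), no or a stricter filter, other probe set handling, no trend, array weights, 2-group fits and leaving out arrays.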

Additional observations from a re-analysis of the deposited data

Results flagged for a closer look

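The castration difference of 4 genes named above differed between luminal and basal cells by the interaction test in limma, adjusted over all 14645 genes. The luminal minus basal difference was -2.81 for Rgs2 (adjusted p = 0.00293), -2.48 for Herpud1 (adjusted p = 0.00269), -2.40 for Ddit3 (adjusted p = 0.0170) and -1.74 for Phyh (adjusted p = 0.0439). Leaving out 1 array at a time ended the call for Phyh in 10 of 12 fits and for Ddit3 in 2 of 12, and for Rgs2 and Herpud1 in none of 12. Without the intensity trend only Herpud1 passed (adjusted p = 0.0299). Rgs2 (adjusted p = 0.0522), Ddit3 (adjusted p = 0.0701) and Phyh (adjusted p = 0.110) did not. Neither Ddit3 nor Phyh passed without replicate 3 in all groups. With the replicate number as a block the adjusted p of Phyh was 0.0715. Groups of 3 arrays are too small for a check of single outlying arrays.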

How the results depend on the processing

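The luminal count of 858 genes was 555 without the intensity trend, 1945 with array weights, 520 without replicate 3 in all groups and 401 to 984 when 1 array was left out; the lowest was without castrated luminal replicate 3. The basal count of 384 was 626 under median centring, 155 without the trend, 202 with array weights, 120 in the 2-group fit and 175 to 623 when 1 array was left out, lowest without castrated basal replicate 2 and highest without intact luminal replicate 3. The interaction count of 168 was 27 without the trend, 83 without replicate 3 in all groups and 65 to 163 when 1 array was left out, lowest without castrated luminal replicate 3. Median centring moved the median of all genes to 0.29 in luminal and 0.23 in basal cells, and the split of calls to 1021 higher and 252 lower in luminal cells (424 and 434 without it) and 511 higher and 115 lower in basal cells (164 and 220 without it). Under it 4 of 19 TNF genes rose in luminal cells, beside 1021 of all 14645 genes. The luminal falls of Herpud1, Ddit3, Dnajc3, Dnajb9 and Rgs11 no longer passed under median centring. With the replicate number as a block the counts were 805, 318 and 129. The luminal member differences were then 3.38, 4.33, 2.09, 3.62 and 5.41 for Tnfaip2, Rgs4, Mtmr11, Casp12 and Ccdc3. Among the named list genes and neighbours no call changed with the block, except those given above for Rgs11, Dnajb9, Tnfrsf1a and Phyh. Calls of cell type markers, such as Mbp and Lyz2, were not followed over the alternative settings. When 1 array was left out, luminal calls were lost in 7 of 12 fits for Dnajb9, 5 for Birc3 and Otud7b, 4 for Rgs11 and Ddit3, 2 for Ern1 and 1 for Exoc4 (without castrated luminal replicate 3), Capn2 and Trib3; basal calls were lost in 10 for Otud7b, 8 for Gsdmd and Dnajc3, 7 for Tnfrsf1a, 5 for Gnai3 and 3 for Mtmr10 and Trib3.

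The luminal member differences stayed positive in all settings. With 1 in place of 16 added they were 5.38 for Rgs4, 5.19 for Casp12 and 6.10 for Ccdc3; with 64 added, 3.19, 2.20 and 4.35 for the same genes. Casp12 had 4.00 under median centring. Averaging the probe sets of a gene gave 2.24 for Tnfaip2 and 2.84 for Casp12. Other probe sets gave 2.36 and 0.97 for Tnfaip2, 5.47 for Rgs4, 0.56 for Mtmr11 and 2.06 for Casp12, and 0.98 for Rgs4 in basal cells, a turned sign. Leaving out 1 array gave 3.16 to 3.79 for Tnfaip2, 3.83 to 4.60 for Rgs4, 1.37 to 3.02 for Mtmr11, 3.34 to 3.83 for Casp12 and 5.07 to 5.62 for Ccdc3. The causes of these shifts were not tested. Signals below the 40th percentile of an array carry no order.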
